A study of Homo sapiens with 6 samples.

Results

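The genes described here carry out the unfolded protein response and the integrated stress response. Of the 40 named by symbol, 39 had a row in the deposited count table of 33835 genes; SELK had no row under that name or as SELENOK and was not analysed here. They fall into an ATF4 side of 14 genes, an ATF6 and XBP1 side of 15 genes, and 11 genes of ER-associated degradation, of which 10 had a row. All 39 passed the filter on low counts.

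The study asked which transcripts depend on E6AP, the ubiquitin ligase encoded by UBE3A, in DU145, an established prostate cancer cell line of human origin. Cells transduced with a short hairpin against E6AP (shE6AP, 3 libraries) were compared with cells transduced with a wobble control hairpin (wobble, 3 libraries). Cells of both groups were exposed to doxycycline at 0.2 µg/ml for 2.5 days, so neither group shows the cells without the drug. The labels do not say whether a group is 1 clone or a pool, and do not give the culture each library came from, so the spread behind each p-value is that among these libraries and may be technical.

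Misfolded protein in the endoplasmic reticulum (ER) is sensed by the membrane proteins PERK (EIF2AK3), IRE1 (ERN1) and ATF6. PERK and the other eIF2 kinases slow translation initiation while allowing ATF4 to be made, IRE1 splices XBP1 mRNA into the form that encodes an active factor, and ATF6 is cleaved in the Golgi to release its own. The targets of these factors include ER chaperones, folding enzymes and the machinery that exports misfolded proteins for degradation by the proteasome. Much of this control is exerted on splicing, cleavage and translation, which counts of reads per gene do not record.

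Libraries held between 21558506 and 30488217 reads on genes. Levels are given as CPM (reads on a gene relative to all gene reads of its library, with TMM scaling, which corrects library size for composition), and differences as log2 fold changes of shE6AP over wobble with their standard error (SE); adjusted p comes from the quasi-likelihood test of edgeR, adjusted over all 19433 genes tested by the method of Benjamini and Hochberg, and a gene is called where it is under 0.05. UBE3A itself stood at 14.2, 14.5 and 14.97 CPM in the shE6AP libraries and 54.1, 55.4 and 57.9 CPM in the wobble libraries (log2 fold change -1.94, SE 0.0512, adjusted p 2.52e-31). The 6 markers of the line (KRT8, KRT18, KRT19, EPCAM, CDH1 and VIM) summed to at least 1560 CPM in every library. Among blood cell markers, PTPRC, which marks all white blood cells, was at most at 0.421 CPM, and CD14, a monocyte marker, rose from 0.700 ± 0.207 to 2.41 ± 0.486 CPM (SD, n = 3). Of 5 fibroblast and endothelial genes, 4 had rows and summed to 12.6 to 15.4 CPM in wobble and 17.9 to 19.2 CPM in shE6AP, mostly COL1A1; the part of these cell types in the results was not tested.

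In shE6AP cells the stress response genes did not move as a block. EDEM1, an ER lectin that hands misfolded glycoproteins to degradation, fell to 35.8% of its wobble level, and DDIT4, SDF2L1, CRELD2 and CREB3L2 fell to between 55.6% and 69.4%. DERL3, a membrane protein of the degradation channel, rose 4.34-fold from a low level. ATF4, DDIT3 and most other factors of the ATF4 side rose by at most 1.17-fold, and the XBP1 and ERN1 transcripts did not pass the test.

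Of the 39 genes, 15 were higher, 14 were lower and 10 did not pass. The called share was 29 of 39, or 74.4%, against 59% of all genes tested, with 28.6% higher and 30.4% lower. Nearly all of these genes were well expressed, however: among genes with a mean of at least 10 CPM the background was 74.5%, and 28 of the 38 stress response genes above that level were called. A share of this size is thus near the background of genes of that level. Groups of libraries did not overlap for 31 of 39 genes, against 62.6% of all genes. That background is over genes of every level and was not computed at 10 CPM or more. With an absolute log2 fold change of at least 0.5, 6 were called (DERL3 higher, EDEM1, SDF2L1, CRELD2, DDIT4 and CREB3L2 lower), or 15.4%, against 22.2% of all genes. The median log2 fold change over the 39 genes was -0.03 and the median over all genes tested 0.01. Many calls were small, and a test for changes beyond 1.2-fold (glmTreat in edgeR) called 11 of the 39. It called 5637 of all 19433 genes tested, so the share is again near the background. PPP1R15B, ATF6, CANX and DERL3 were higher and DDIT4, CREB3L2, CRELD2, SDF2L1, MANF, HERPUD1 and EDEM1 lower.

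**Figure D1:**
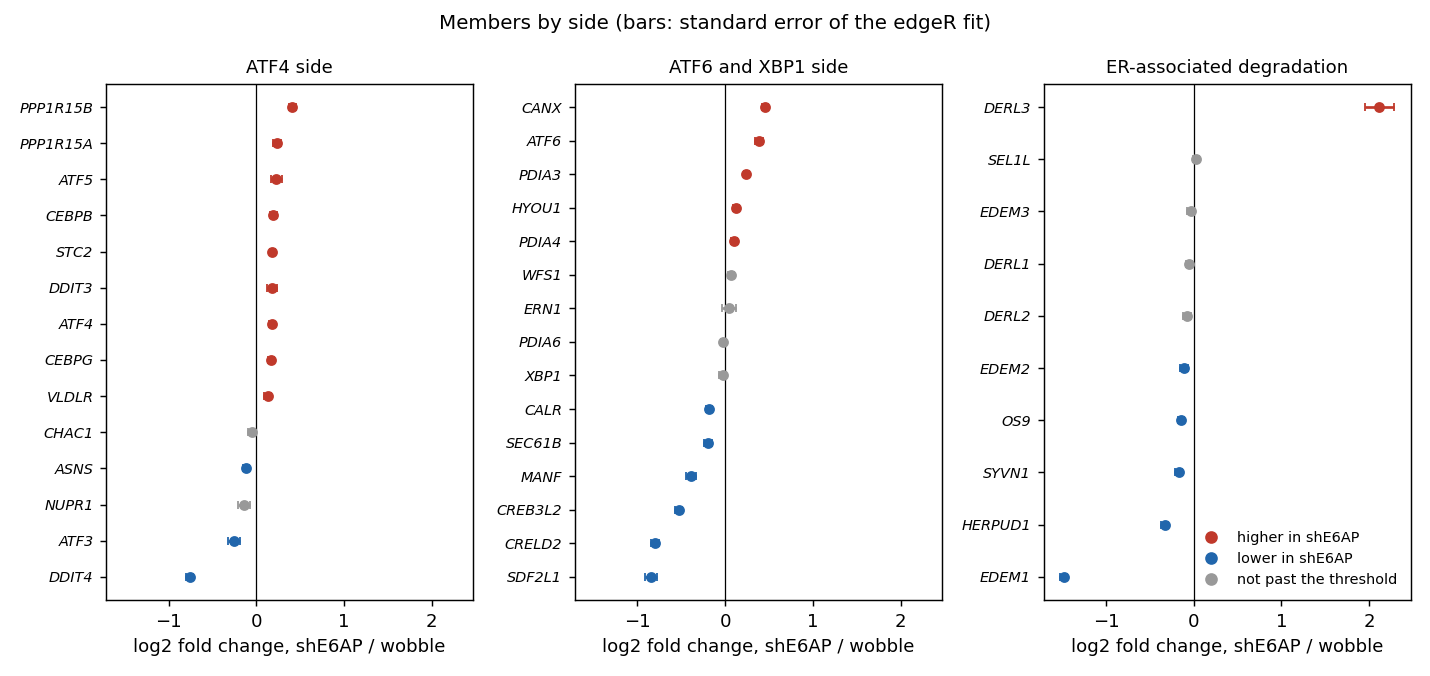
The 39 genes (vertical axis) by side, with the log2 ratio of shE6AP to wobble on the horizontal axis; points are fitted values from 3 libraries a group, bars their standard errors, red higher, blue lower and grey not past the threshold. Most ATF4 side genes lie just right of 0 with DDIT4 far to the left at -0.76, while EDEM1 at -1.48 and DERL3 at 2.12 are the extremes of the degradation genes.

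On the ATF4 side, 9 genes were higher, 3 were lower (DDIT4, ATF3 and ASNS) and 2 did not pass (CHAC1 and NUPR1). The median log2 fold change was 0.17. ATF4, the transcription factor translated when eIF2 is phosphorylated, stood at 450, 449 and 431 CPM in shE6AP and 407, 383 and 389 CPM in wobble. Every shE6AP library was thus above every wobble library, by a margin of a few percent at the closest. The difference was a log2 fold change of 0.17 (SE 0.0324, adjusted p 1.04e-05). Reads can also fall on processed copies of this gene: ATF4P3 had 2372 reads over the 6 libraries against 66677 on ATF4, and rose by 0.24 on the log2 scale.

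The factors that ATF4 works with or induces moved little. DDIT3, which encodes the pro-apoptotic factor CHOP, stood at 23.7, 22.9 and 24.1 CPM in shE6AP and 19.4, 21.4 and 21.8 CPM in wobble. Its groups were separate by about 1 CPM, with a log2 fold change of 0.18 (SE 0.0569, adjusted p 0.00563). The call on DDIT3 ended without wobble library 1, where the log2 fold change was 0.12 (adjusted p 0.0753). In GENCODE v29, 39.6% of the DDIT3 exon bases are also exon of MARS, MBD6 or AC022506.1. The library kit does not mark strand, so reads on shared bases may belong to either gene. They may also have been left out of the counts as ambiguous between genes. Similar overlaps hold for 41.2% of DDIT4 (with DDIT4-AS1), 44.6% of ASNS, 33.3% of PDIA3, 26.2% of ATF5 and 25.2% of PDIA6.

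CEBPB and CEBPG, bZIP partners of ATF4, rose by 0.19 and 0.17 on the log2 scale, and ATF5, a related factor under the same kind of translational control, by 0.23. ATF3, a stress-induced repressor, went the other way. It stood at 21.7, 19.9 and 22.1 CPM in shE6AP and 23.9, 23.3 and 29.2 CPM in wobble, so the highest value was that of wobble library 3. The log2 fold change was -0.26 (SE 0.0644, adjusted p 0.000685) and became -0.15 (adjusted p 0.0314) without that library. NUPR1, a small chromatin-associated stress protein, had a log2 fold change of -0.14 (adjusted p 0.0901). The value stayed negative with any single library left out, but its size changed. NUPR1 was called lower without wobble library 3 (-0.18, adjusted p 0.0454) and stood at -0.08 (adjusted p 0.434) without wobble library 2.

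Among the ATF4 targets of the 39 genes, the clearest difference was in DDIT4 (REDD1), an inhibitor of mTORC1 signalling. Hypoxia and glucocorticoids also induce this gene. Outside the 39, the targets TRIB3 (0.94) and GDF15 (-1.04) changed further on the log2 scale. DDIT4 stood at 110, 98.5 and 108 CPM in shE6AP and 176, 178 and 183 CPM in wobble. The groups were far apart, with the highest shE6AP library well under the lowest wobble library. The fold change was -0.76 on the log2 scale (SE 0.0368, adjusted p 6.78e-22), against the direction of ATF4 itself.

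CHAC1, a glutathione-degrading enzyme and a sensitive reporter of ATF4 activity, stood at 42.6, 42.1 and 41.6 CPM in shE6AP and 44.1, 42.9 and 43.8 CPM in wobble. Its groups did not overlap, but the difference of -0.05 (SE 0.0425, adjusted p 0.335) did not pass. ASNS, asparagine synthetase, was lower by a log2 fold change of -0.12 (adjusted p 0.00389); without shE6AP library 2 this was -0.08 (adjusted p 0.0599). VLDLR, a lipoprotein receptor, and STC2, a secreted glycoprotein of the stanniocalcin family, rose by 0.13 and 0.18 on the log2 scale. The VLDLR call ended without shE6AP library 3 (adjusted p 0.0532).

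PPP1R15A (GADD34) and PPP1R15B (CReP) are the regulatory subunits that direct protein phosphatase 1 to eIF2 and so restore translation. The inducible subunit, PPP1R15A, stood at 70.5, 70.3 and 68.0 CPM in shE6AP and 59.7, 55.8 and 61.9 CPM in wobble. The constitutive one, PPP1R15B, stood at 157, 160 and 163 CPM in shE6AP and 114, 122 and 124 CPM in wobble. Both rose with no overlap between groups, by 0.24 (SE 0.0407) and 0.41 (SE 0.0357, adjusted p 1.6e-13) on the log2 scale, so that PPP1R15B had the largest rise on this side.

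**Figure D2:**
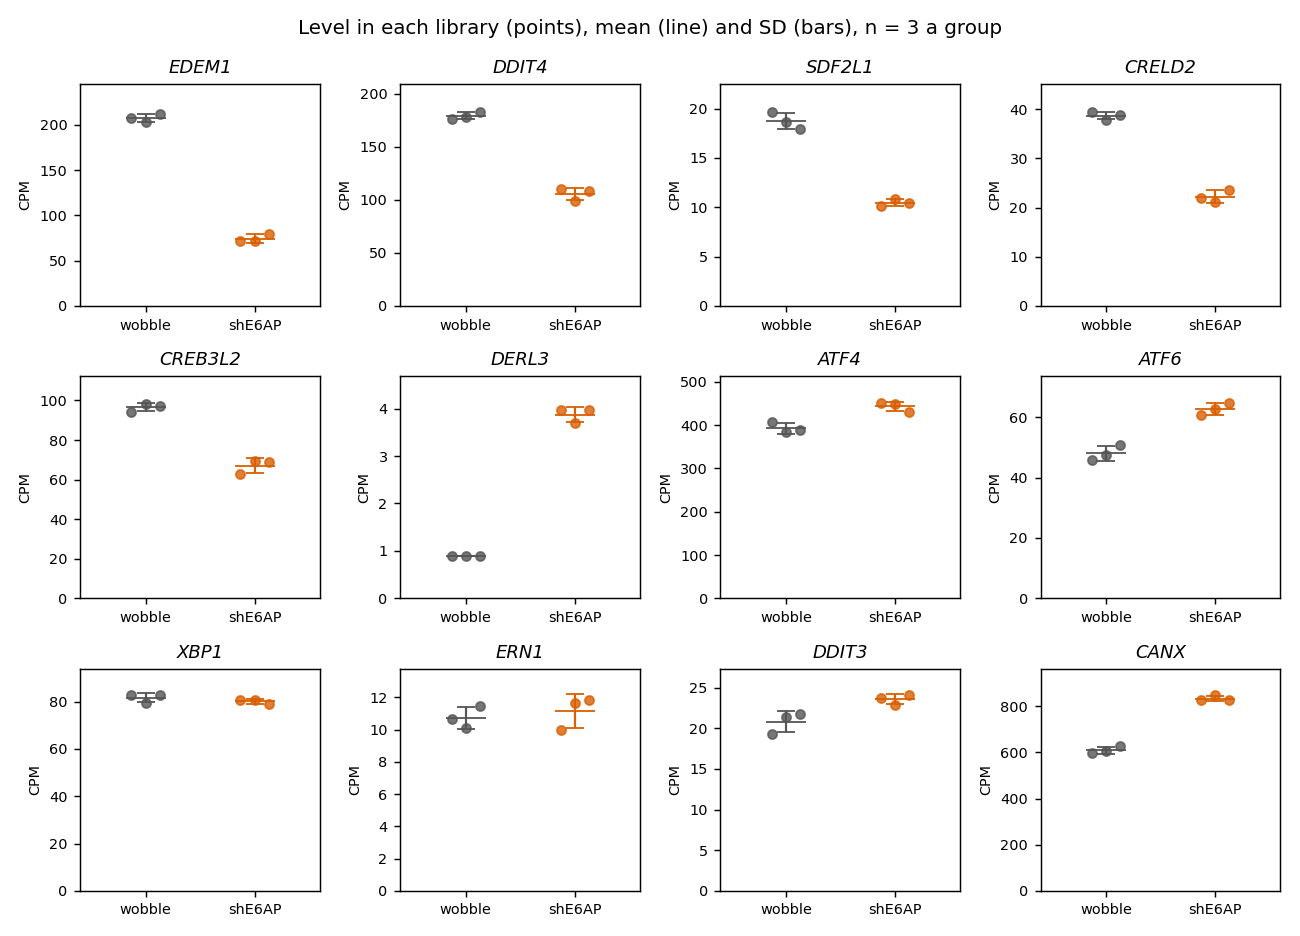
Level in CPM (vertical axis, from 0) in each library for 12 of the genes; points are libraries, horizontal lines group means and bars the SD of 3 libraries, with wobble in grey and shE6AP in orange. EDEM1, DDIT4, SDF2L1, CRELD2 and CREB3L2 are lower and DERL3, ATF6 and CANX higher in every shE6AP library, ATF4 and DDIT3 are separated by a small step, and the libraries of XBP1 and ERN1 overlap.

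On the ATF6 and XBP1 side, 5 genes were higher, 6 were lower and 4 did not pass (XBP1, ERN1, WFS1 and PDIA6), with a median log2 fold change of -0.02. XBP1 stood at 80.8, 80.6 and 78.9 CPM in shE6AP and 82.8, 79.5 and 82.8 CPM in wobble. Its groups overlapped, and the log2 fold change was -0.03 (SE 0.0370, adjusted p 0.539). Spliced and unspliced XBP1 mRNA fall on the same gene and cannot be told apart in these counts. ERN1, the kinase and nuclease that splices it, stood at 9.96, 11.7 and 11.8 CPM in shE6AP and 10.6, 10.1 and 11.5 CPM in wobble, also overlapping (log2 fold change 0.05, SE 0.0789, adjusted p 0.630).

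ATF6, the membrane-bound precursor of the cleaved factor, did rise. It stood at 60.8, 62.8 and 64.7 CPM in shE6AP and 45.9, 47.4 and 50.8 CPM in wobble, without overlap. The log2 fold change was 0.39 (SE 0.0424, adjusted p 1.14e-10). CREB3L2, a factor of the same membrane-bound family that controls secretory pathway genes, fell: it stood at 62.7, 69.5 and 69.1 CPM in shE6AP and 94.4, 98.2 and 97.0 CPM in wobble. Here too the groups were well apart (log2 fold change -0.53, SE 0.0395, adjusted p 1.7e-15). WFS1 is an ER membrane glycoprotein mutated in Wolfram syndrome. The WFS1 log2 fold change was 0.07 (adjusted p 0.101), and the gene was called higher with upper-quartile scaling (adjusted p 0.0186) and without wobble library 1 (adjusted p 0.0344), while without shE6AP library 2 the value was 0.04 (adjusted p 0.415).

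Several of these genes carry the ER stress response element (ERSE) in their promoters, the sequence through which ATF6 and XBP1 act together with NF-Y. Promoters of 35 of the 39 genes were matched by symbol in RefSeq (GRCh38.p14; all but NUPR1, PDIA3, DERL1 and DERL3), as 50 windows from 250 bases before to 50 after an annotated start. The ERSE was searched as CCAAT, any 9 bases, then CCACG, and the related ERSE-II as ATTGG, any base, then CCACG, on both strands. The ERSE occurred in 0.0769% of all 35116 promoter windows of that length and in those of 5 of the 35 genes (XBP1, CRELD2, CALR, CANX and PDIA6). ERSE-II occurred in 0.0541% of windows and in those of SDF2L1, HYOU1 and HERPUD1. The UPRE core TGACGTGG, in 0.729% of windows, occurred in HYOU1 only, where it overlaps an ERSE-II. The response element for ATF4 with C/EBP factors, searched as TGATGNAAT, was in 0.991% of windows and in none of the 50. That absence is of this spelling only, which fixes the last base as T. Windows of ASNS (TGATGAAAC), CEBPG and PPP1R15B (both TGATGCAAC) hold forms that differ in that base on the gene's own strand. Those of CHAC1 and HERPUD1 hold TGATGCAAC on the opposite strand, and windows of ATF3 and CREB3L2 hold forms with other last bases. The list may not be complete. How many of all windows hold such forms was not counted. A match is a match of letters and says nothing of binding in these cells.

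The elements are shown because genes that share one did not share a direction. Each is given 5′ to 3′ on the gene's own strand with the element in capitals, so an element on the opposite strand begins with CGTGG. CRELD2 (ERSE, lower, chr22:49918539-49918587, plus strand), CALR (ERSE, lower, chr19:12938369-12938417, plus strand), XBP1 (ERSE, not passing, chr22:28800588-28800636, minus strand), PDIA6 (ERSE, not passing, chr2:10812848-10812876, minus strand) and CANX (ERSE, higher, chr5:179698773-179698801, plus strand) come first, then SDF2L1 (ERSE-II, lower, chr22:21642099-21642139, plus strand), HERPUD1 (ERSE-II, lower, chr16:56932010-56932050, plus strand) and the copy in HYOU1 nearer its start (ERSE-II, higher, chr11:119057259-119057299, minus strand).
CRELD2: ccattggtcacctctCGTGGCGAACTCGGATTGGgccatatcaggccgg
CALR: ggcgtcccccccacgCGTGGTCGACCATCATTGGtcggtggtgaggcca
XBP1: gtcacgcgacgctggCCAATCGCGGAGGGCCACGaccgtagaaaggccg
PDIA6: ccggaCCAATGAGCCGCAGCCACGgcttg
CANX: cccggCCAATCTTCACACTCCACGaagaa
SDF2L1: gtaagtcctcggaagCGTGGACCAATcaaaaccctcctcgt
HERPUD1: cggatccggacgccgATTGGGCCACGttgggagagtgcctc
HYOU1: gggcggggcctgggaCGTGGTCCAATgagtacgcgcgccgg

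Among targets and folding factors, CRELD2, SDF2L1, MANF, CALR and SEC61B fell. CRELD2, an ER-resident protein with EGF-like repeats, stood at 21.99, 21.1 and 23.6 CPM in shE6AP and 39.4, 37.9 and 38.8 CPM in wobble. SDF2L1, a cofactor of the BiP chaperone cycle, stood at 10.2, 10.9 and 10.4 CPM in shE6AP and 19.6, 18.7 and 18.0 CPM in wobble. They lay at 57.5% and 55.6% of the wobble level with no overlap, with log2 fold changes of -0.80 (SE 0.0505, adjusted p 6.71e-18) and -0.85 (SE 0.0679, adjusted p 1.37e-14). MANF, a secreted neurotrophic factor held in the ER, stood at 15.4, 14.8 and 15.2 CPM in shE6AP and 20.6, 19.5 and 19.2 CPM in wobble, again without overlap (log2 fold change -0.39, SE 0.0613, adjusted p 5.01e-07). SEC61B, a subunit of the protein-conducting channel, was lower by a log2 fold change of -0.19 (SE 0.0457).

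Several other chaperones and folding enzymes went the other way. HYOU1, the large HSP70-like chaperone and exchange factor of BiP, rose by 0.13 on the log2 scale (adjusted p 0.000789). PDIA3 (ERp57) and PDIA4 (ERp72), protein disulphide isomerases, rose by 0.24 and 0.10 on the log2 scale, and PDIA6 (log2 fold change -0.02, adjusted p 0.644) did not pass. Without wobble library 2 the PDIA4 call ended (log2 fold change 0.08, adjusted p 0.0781). HSPA5 (BiP) and HSP90B1 (GRP94), the major chaperones of the lumen, rose by 0.12 and 0.20 on the log2 scale, from 737 ± 9.93 to 800 ± 12.8 CPM and from 772 ± 6.87 to 887 ± 4.997 CPM (SD, n = 3).

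Calnexin and calreticulin are paralogous lectin chaperones that hold monoglucosylated glycoproteins for folding with PDIA3; the first is anchored in the membrane and the second is soluble. CANX stood at 826, 847 and 828 CPM in shE6AP and 596, 605 and 627 CPM in wobble. CALR stood at 903, 918 and 878 CPM in shE6AP and 1056, 1009 and 1000 CPM in wobble. The pair moved in opposite directions without overlap, CANX by 0.45 (SE 0.0315, adjusted p 1.55e-16) and CALR by -0.18 (SE 0.0320, adjusted p 3.48e-06) on the log2 scale.

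Ratios of reads within a library need no scaling between libraries. For CANX over CALR the ratio was 0.915, 0.923 and 0.943 in shE6AP and 0.565, 0.600 and 0.627 in wobble. All shE6AP libraries were above all wobble libraries, by 0.64 on the log2 scale (two-sided exact permutation test, p = 0.1, which is the lowest value possible with 3 libraries a group). This and the other 4 ratios computed were chosen after the values were seen. Each of the 5 had the same p, which adjustment over the 5 by Benjamini and Hochberg leaves at 0.1. That does not cover the many pairs they were picked from, so these p-values are descriptive only.

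**Figure D3:**
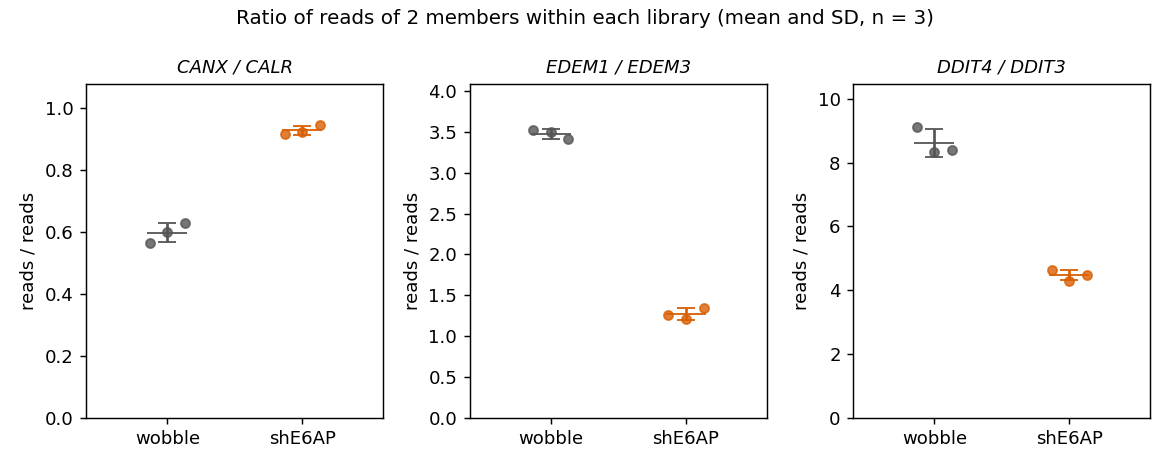
Ratio of reads of paired genes (vertical axis, from 0) within each library, for CANX over CALR, EDEM1 over EDEM3 and DDIT4 over DDIT3; points are libraries, lines group means and bars the SD of 3 libraries. CANX over CALR is higher in every shE6AP library, and the other ratios are lower in every one.

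In ER-associated degradation, 5 of the 10 genes measured were lower, 1 was higher and 4 did not pass, with a median log2 fold change of -0.09. The EDEM proteins act on N-glycans of misfolded glycoproteins and mark them for export. EDEM1 stood at 71.8, 71.2 and 79.7 CPM in shE6AP and 207, 203 and 212 CPM in wobble. No other of the 39 genes fell as far (log2 fold change -1.48, SE 0.0382, adjusted p 9.31e-32); the value ranked 254th from the lowest of the 19433 genes tested. A transcript on the other strand, AC026202.3, overlaps 9.66% of the EDEM1 exons in GENCODE v29.

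The paralogs did not share this. EDEM3 stood at 56.9, 59.1 and 59.1 CPM in shE6AP and 58.9, 58.0 and 62.1 CPM in wobble, with overlapping groups (log2 fold change -0.03, SE 0.0403, adjusted p 0.495). EDEM2 stood at 54.8, 53.5 and 55.3 CPM in shE6AP and 62.8, 56.8 and 56.8 CPM in wobble. The EDEM2 log2 fold change of -0.11 (adjusted p 0.0246) rested on wobble library 1, without which it was -0.06 (adjusted p 0.212); it also did not pass without shE6AP library 2 (adjusted p 0.0688), with upper-quartile scaling (adjusted p 0.0939) or in DESeq2 (adjusted p 0.0915). Reads on EDEM1 were 3.48 ± 0.0596 times those on EDEM3 in wobble and 1.27 ± 0.0722 times in shE6AP (SD, n = 3; p = 0.1 in the same exact test).

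The channel and ligase components were nearer to their wobble levels. SYVN1 (HRD1), the ubiquitin ligase of the main degradation complex, fell from 71.4 ± 1.99 to 63.6 ± 2.33 CPM (SD, n = 3; log2 fold change -0.17, adjusted p 0.000267). SEL1L, its partner, had a log2 fold change of 0.03 (SE 0.0344, adjusted p 0.524). OS9, a lectin that delivers substrates to that complex, was lower by a log2 fold change of -0.14 (adjusted p 0.000291). HERPUD1, an ER membrane protein of the same complex and a target of ATF4, ATF6 and XBP1, stood at 45.1, 46.6 and 46.4 CPM in shE6AP and 58.7, 55.9 and 59.2 CPM in wobble. The groups were separate, with a log2 fold change of -0.33 (SE 0.0413, adjusted p 2.8e-09).

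Derlins are rhomboid-like membrane proteins of the export channel. DERL1 and DERL2 did not pass, at log2 fold changes of -0.05 (SE 0.0382, adjusted p 0.222) and -0.08 (SE 0.0448, adjusted p 0.132); DERL2 was called lower without shE6AP library 1 (-0.12, adjusted p 0.039) and stood at -0.05 (adjusted p 0.454) without shE6AP library 2. DERL3, the family member known for its expression in secretory tissues, stood at 3.96, 3.70 and 3.96 CPM in shE6AP and 0.892, 0.900 and 0.886 CPM in wobble. In reads these were 113, 79 and 95 against 27, 26 and 24. The separation was complete, and the log2 fold change of 2.12 (SE 0.164, adjusted p 5.06e-15) ranked 150th from the highest of the genes tested. In GENCODE v29, 77.0% of the DERL3 exon bases are also exon of SMARCB1 on the other strand. Reads of the 2 genes on shared bases may not be separable, or may have been left out of the counts as ambiguous. SMARCB1 fell from 60.4 ± 1.63 to 52.5 ± 0.156 CPM (SD, n = 3).

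Levels of different genes can be set side by side only per length. Per kilobase of merged GENCODE v29 exons, which are not the authors' gene models, CALR had the highest level at 376 CPM per kb in wobble and 332 in shE6AP, and ATF4 followed at 156 and 176. EDEM1 and EDEM2 were level at 30.7 and 30.65 CPM per kb in wobble, and stood at 10.98 and 28.4 in shE6AP. By this measure DERL3 was the lowest of the 39 in both groups, at 0.235 CPM per kb in wobble and 1.02 in shE6AP. ERN1 was nearly as low in shE6AP, at 1.03. As 77% of the DERL3 exon bases are shared with SMARCB1, reads there may not have been counted. The DERL3 level per kb, and so its rank, may then be too low.

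A wider list of 89 other genes of these pathways held 32 higher, 39 lower and 16 not passing of 87 tested, with a median log2 fold change of -0.04. The called share was 81.6%, against 59% of all genes tested and 74.5% of those with a mean of at least 10 CPM. Among 12 genes of eIF2 and its kinases, 4 were higher and 5 were lower. EIF2AK1 (HRI), the haem-regulated kinase, fell by 0.52 and EIF2AK4 (GCN2), the kinase that senses uncharged tRNA, by 0.21 on the log2 scale. EIF2AK3 (PERK) had a log2 fold change of -0.30 (adjusted p 0.000663), with 11.3, 15.03 and 15.1 CPM in shE6AP and 16.9, 16.2 and 17.5 CPM in wobble. That call rested on shE6AP library 1, the lowest of them; without it the log2 fold change was -0.16 (adjusted p 0.0538). EIF2S2, the beta subunit of eIF2, rose by 0.67 and EIF2B4, a subunit of its exchange factor, fell by 0.88 on the log2 scale.

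Of 12 other ATF4 targets tested, 7 were higher and 4 were lower, against 28.6% higher and 30.4% lower among all genes tested. Their log2 fold changes ran from -1.04 to 0.94, with a median of 0.17. TRIB3, a pseudokinase induced by ATF4 and CHOP, stood at 127, 129 and 126 CPM in shE6AP and 68.9, 65.1 and 65.1 CPM in wobble. It rose by 0.94 on the log2 scale (SE 0.0366, adjusted p 2.93e-25), far beyond the spread of the libraries. VEGFA, the angiogenic growth factor, fell by 0.61 on the log2 scale. GDF15, a stress-induced cytokine, fell from 1.54 ± 0.101 to 0.749 ± 0.0885 CPM (SD, n = 3). It had 16 to 50 reads a library. With an absolute log2 fold change of at least 0.5, 4 of the 12 were called higher and 2 lower. That is 50%, against 22.2% of all genes. Besides TRIB3, those higher were SLC7A11 (0.59), SLC7A5 (0.55) and PSAT1 (0.52). FGF21 was too low to be tested.

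Of 8 genes for sensors and their processing, 1 was higher (TRAF2, an adaptor bound by IRE1, by 0.22) and 4 were lower. MBTPS2, the site-2 protease that cuts ATF6 within the membrane, fell from 26.8 ± 1.22 to 16.9 ± 1.09 CPM (SD, n = 3; log2 fold change -0.66, adjusted p 2.75e-13), while ATF6 itself rose. MBTPS1, the site-1 protease, had a log2 fold change of -0.06 (adjusted p 0.129). CREB3L1, a relative of CREB3L2, fell from 2.84 ± 0.587 to 0.883 ± 0.120 CPM (SD, n = 3).

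Of 34 genes of ER folding and translocation, 15 were higher and 13 were lower, with a median of 0.03. P4HB, the founding protein disulphide isomerase, rose by 0.53, while TXNDC11, a thioredoxin-domain protein of the ER, fell by 0.62 and SSR3, a subunit of the translocon-associated complex, by 0.53 on the log2 scale. Of 21 other degradation genes, 5 were higher and 13 were lower, with a median of -0.21, against 30.4% lower among all genes tested. The share called in either direction was 59% of all genes but 74.5% at a mean of 10 CPM or more. The share lower at that level was not computed. NGLY1, the glycanase that strips N-glycans from exported proteins, fell by 0.76 and FAM8A1, a component of the HRD1 complex, by 0.61, and FAF2 (UBXD8), which recruits the p97 ATPase, rose by 0.52 on the log2 scale.

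**Figure D4:**
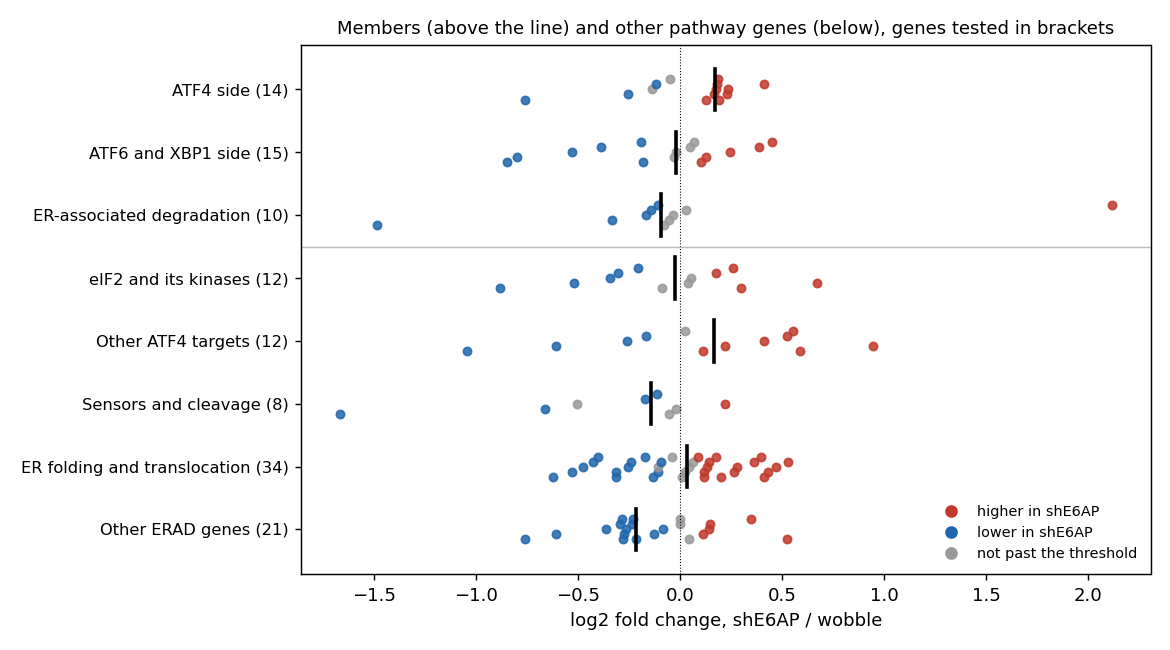
The log2 ratio of shE6AP to wobble (horizontal axis) for every tested gene of the 3 sides (above the grey line) and of the wider pathway list (below), with the number of genes in brackets; points are genes, red higher, blue lower and grey not past the threshold, and black bars are medians. Medians run from -0.21 for other degradation genes to 0.17 for the ATF4 side and the other ATF4 targets, and each group holds genes on both sides of 0.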

How the data were processed

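Per the labels' protocols, TRIzol was used for extraction and the TruSeq RNA kit (version 2) for the libraries. The submitters' processing notes name TopHat2 2.0.13, Bowtie2, HTSeq and the build hg19; which annotation and strand setting were used for counting is not given in the sources used here. The deposited table holds raw counts of reads per gene. HTSeq's summary rows (14.6% to 16.0% of reads in no feature and 2.05% to 2.21% ambiguous), and the pieces of 1 row broken over 2 lines were left out.

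All genes were fitted together in edgeR 4.0.16 (R 4.3.3): filterByExpr, TMM, and the quasi-likelihood test with group as the only term. SE is the log2 fold change over the square root of F. Genes named outside the 39 were BiP, GRP94, PERK, GCN2 and TRIB3 whatever their values. To these came up to 3 called genes of each pathway group by absolute log2 fold change. SMARCB1, ATF4P3, MBTPS1, FGF21, SLC7A11, SLC7A5 and PSAT1 were added after their values were seen. The genes and lists were chosen with earlier results of these data known. Some marker genes of other cell types are not reported here. On simulated data for the 19433 genes of shE6AP against wobble, 48% of the genes altered 1.2-fold were recovered, 72% of those altered 1.5-fold, 96% of those altered 2-fold and 100% of those altered 4-fold, and 6.51% of calls were unaltered genes. The simulation altered 50 genes of any level at each fold, a far smaller share than the 59% called in the data. The recovered shares are thus not those for the 39 genes. Alternatives were 3 other scalings, DESeq2 1.42.0, limma-voom 3.58.1, other filters, the replicate block, libraries left out, and glmTreat. Promoters came from RefSeq, exon lengths and overlaps from GENCODE v29 (GRCh38), none used for counting.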

Additional observations from a re-analysis of the deposited data

How the results depend on the processing

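With RLE, upper-quartile or library-total scaling, DESeq2, limma-voom, either other filter, or the replicate block, at least 28 of the 29 called stress response genes kept their call and direction. Scaling shifted the median log2 fold change over all genes by at most 0.0284. With the replicate number as a block, 30 were called (16 higher, 14 lower), the 29 and WFS1 (WFS1 log2 fold change 0.07, adjusted p 0.0438), and 11979 of all genes; same-numbered libraries deviated together with correlations of only 0.0438, 0.0166 and 0.0372, so the numbers were not taken as pairs, although each library correlated best with its own number, a hint from the data only. Leaving out 1 library gave 27 to 30 calls, 14 to 15 higher and 12 to 15 lower (ATF4 side 8 to 9 higher and 2 to 4 lower; ATF6 and XBP1 side 4 to 6 and 6; degradation 1 and 4 to 6), and 10708 to 11084 of all genes, and the UBE3A check gave log2 fold changes of -1.97 to -1.92.

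Larger demands on size removed most calls, by construction. Against a fold of 1.2, 11 stress response genes were called, 4 higher and 7 lower. By side, higher and lower, these were 1 and 1 (ATF4), 2 and 4 (ATF6 and XBP1), and 1 and 2 (degradation). Of all genes 5637 were called, 2553 higher and 3084 lower. The libraries varied by a biological coefficient of variation of 2.77%. With 0.1 assumed in its place, an alternative added after seeing the data, 11 were called. The sides again held 1 and 1, 2 and 4, and 1 and 2. Called over all genes were 6743, 3110 higher and 3633 lower. With 0.2 assumed, also added, 5 were called: DERL3 higher and DDIT4, CRELD2, SDF2L1 and EDEM1 lower. The sides held 0 and 1, 0 and 2, and 1 and 1, with 2237 of all genes called, 983 higher and 1254 lower. Only uncalled genes changed sign: with upper-quartile scaling XBP1 (0.00059) and PDIA6 (0.010), without shE6AP library 3 ERN1 (-0.0018; -0.0018 to 0.13 over the libraries left out), and without wobble library 1 SEL1L (-0.013; -0.013 to 0.042); the cause was not tested. At the depth of these libraries DERL3 rested on 24 to 113 reads a library.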
